A study of Mus musculus with 9 samples.

Results

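Ucp1 and 9 genes of fat cells (Adipoq, Cidea, Cidec, Fabp4, Plin1, Lep, Cfd, Retn and Car3) were followed through every trigeminal ganglion (TG) library of a study on inflammatory pain of the temporomandibular joint (TMJ). They are 10 of the 21809 genes of the deposited mRNA table. The set was chosen from measured values, because Ucp1 was lower after complete Freund's adjuvant (CFA) than after saline, and the other genes were added to show whether fat tissue RNA moved with it. Their levels and fold changes are therefore given as a description, with no test.

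All 9 libraries came from male wild-type (WT) C57BL/6 mice, 8 weeks old by the study's methods, and each was a pool of unilateral TG punches of 3 mice. The saline group (replicates 1 to 3, labelled day 3) received 10 µl of saline into the TMJ. The CFA3D group (replicates 1 to 3) and the CFA6D group (replicates 4 to 6) received 10 µl of CFA at 5 mg/ml, an oil suspension of killed mycobacteria that inflames the joint, and were taken on day 3 and day 6. No transgene or deletion is labelled in any group, and day 6 has no saline group of its own. The pools are the replicates, so n = 3 per group throughout.

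Ucp1 encodes uncoupling protein 1, a carrier of the inner mitochondrial membrane of brown and beige adipocytes that lets protons return to the matrix without ATP synthesis, so that fuel is burned for heat. Adipocytes of both kinds store triglyceride in lipid droplets and secrete hormones such as adiponectin and leptin. Sensory ganglia are built of neurons, satellite glia and Schwann cells. Fat and skeletal muscle are not part of the nervous tissue of the ganglion.

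The promoters of Ucp1, of Adipoq (adiponectin) and of Retn (resistin) are shown because Ucp1 and Adipoq were highest in the same library and Retn was not. The RefSeq promoter table (build GRCm38.p6) held 7 of the 10 genes, and Fabp4, Car3 and Cidea had no entry. Each line gives the 250 bases before the start site, 5′ to 3′ on the gene's strand, which is the plus strand for all 3. Capitals mark a TATA box (TATAAA, with the variant spelled TATATA counted too), a CCAAT box (CCAAT), a nuclear receptor half-site (AGGTCA) or a CREB half-site (TGACG), searched on both strands. No marked motif overlaps another.
Ucp1, chr8:83290098-83290347: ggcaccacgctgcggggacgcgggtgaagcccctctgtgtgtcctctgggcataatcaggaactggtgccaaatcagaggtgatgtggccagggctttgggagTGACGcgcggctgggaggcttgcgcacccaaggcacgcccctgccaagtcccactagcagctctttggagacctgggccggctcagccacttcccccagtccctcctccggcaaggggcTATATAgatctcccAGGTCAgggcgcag
Adipoq, chr16:23146286-23146535: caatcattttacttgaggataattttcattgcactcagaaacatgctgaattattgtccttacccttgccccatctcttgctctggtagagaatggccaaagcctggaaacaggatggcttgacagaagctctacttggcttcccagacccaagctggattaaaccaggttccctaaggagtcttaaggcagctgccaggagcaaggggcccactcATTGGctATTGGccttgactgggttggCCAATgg
Retn, chr8:3655520-3655769: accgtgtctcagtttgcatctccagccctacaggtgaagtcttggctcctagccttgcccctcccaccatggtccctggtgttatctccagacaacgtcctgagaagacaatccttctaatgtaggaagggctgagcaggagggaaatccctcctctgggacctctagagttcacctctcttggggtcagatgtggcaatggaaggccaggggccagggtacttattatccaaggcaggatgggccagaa
The Ucp1 window held a TATATA beginning 28 bases before the start site (position -28), an AGGTCA at -14 and a TGACG at -147. The Adipoq window held 3 CCAAT boxes, at -34 and -27 on the minus strand and at -7 on the plus strand. The Retn window held none of these letters. Over the 32851 RefSeq promoter windows of the same length, a TATA box was found in 15.6%, a CCAAT box in 33.8%, a nuclear receptor half-site in 14% and a CREB half-site in 17.8%. The G and C content was 64.8% for Ucp1, 48.8% for Adipoq and 54.8% for Retn. These matches describe the letters of the windows only.

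The values are FPKM (read fragments corrected for transcript length and library size), added up over the transcripts of each gene. The step between low values gave 30.1 to 42.3 M read pairs per library, so that a single pair in 1 kb of transcript counted for 0.0236 to 0.0332 FPKM. The tissue label was borne out by its markers: the summed level of 9 sensory neuron genes, led by Tubb3 and Prph, was 1377 to 1995 FPKM. Of the other cell types, 8 endothelial genes (led by Cdh5 and Cldn5) summed to 30.1 to 51.6 FPKM, 8 fibroblast genes (Dcn and Col1a2) to 339.5 to 681 FPKM and 7 macrophage genes (C1qa and C1qb) to 54.4 to 140.3 FPKM. Several libraries stood apart. Saline replicate 3 held 10690 FPKM of 7 pituitary genes (Gh and Prl), against 8.89 to 1117 FPKM elsewhere, and CFA6D replicate 6 held 2749 FPKM of 8 marrow and neutrophil genes (S100a9 and S100a8), against 25.7 to 141.9 FPKM elsewhere. Saline replicate 2 and CFA6D replicate 6 held 263 and 119.3 FPKM of 13 skeletal muscle genes (Acta1 and Atp2a1), against 2.38 to 59.0 FPKM in the other 7. No gene of these lists was at 0 in every library. The part of these other tissues in the results below was not tested.

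Ucp1 RNA was found mainly in a single library, saline replicate 2. The 3 saline libraries held 0.354, 18.3 and 0.0301 FPKM of Ucp1, the CFA3D libraries 0, 0.0396 and 0.0146 FPKM, and the CFA6D libraries 0.0591, 0 and 0.185 FPKM. Saline replicate 2 was thus high, saline replicate 1 and CFA6D replicate 6 came next, and saline replicate 3 lay within the range of the CFA libraries. Of the Ucp1 FPKM of all 9 libraries together, 96.4% was in saline replicate 2, which exceeded the next library 51.6-fold.

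The reads behind these values were few outside that library. Ucp1 (gene ENSMUSG00000031710, chr8:83290352-83298452, plus strand, GRCm38) has 1 transcript in the table, of 6 exons and 1636 bp, so its sum does not depend on how reads were shared among isoforms. About 899 read pairs lay behind saline replicate 2, 17.8 behind saline replicate 1 and 1.98 behind saline replicate 3. The CFA3D libraries had about 0, 2.57 and 0.860 read pairs and the CFA6D libraries 3.82, 0 and 11.5. A level under 0.0433 to 0.0610 FPKM, the worth of 3 read pairs, could not be told from 0 in these libraries, and 6 of the 9 lay at or near it.

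The group means followed the same library. The mean Ucp1 level was 6.22 ± 10.4 FPKM in saline, 0.0181 ± 0.0201 FPKM on CFA3D and 0.0812 ± 0.0942 FPKM on CFA6D (SD, n = 3 pools each). In the order saline, CFA6D, CFA3D, no neighbouring groups differed beyond their spread, since the libraries of neighbouring groups overlapped and each SD was larger than its mean. On the scale of log2(FPKM + 0.1), the fold change of Ucp1 was -3.13 ± 1.45 on CFA3D and -2.63 ± 1.45 on CFA6D (SE, limma). Without saline replicate 2 it was -1.05 and -0.55, with a saline mean of 0.192 FPKM from the other 2 libraries. Without saline replicate 3, which held the least Ucp1 of the saline group, it was -4.63 and -4.13. The library that carried most of the Ucp1 RNA therefore also set the size of the change. In bulk RNA, fewer cells of a type and less RNA per cell cannot be told apart.

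**Figure D1:**
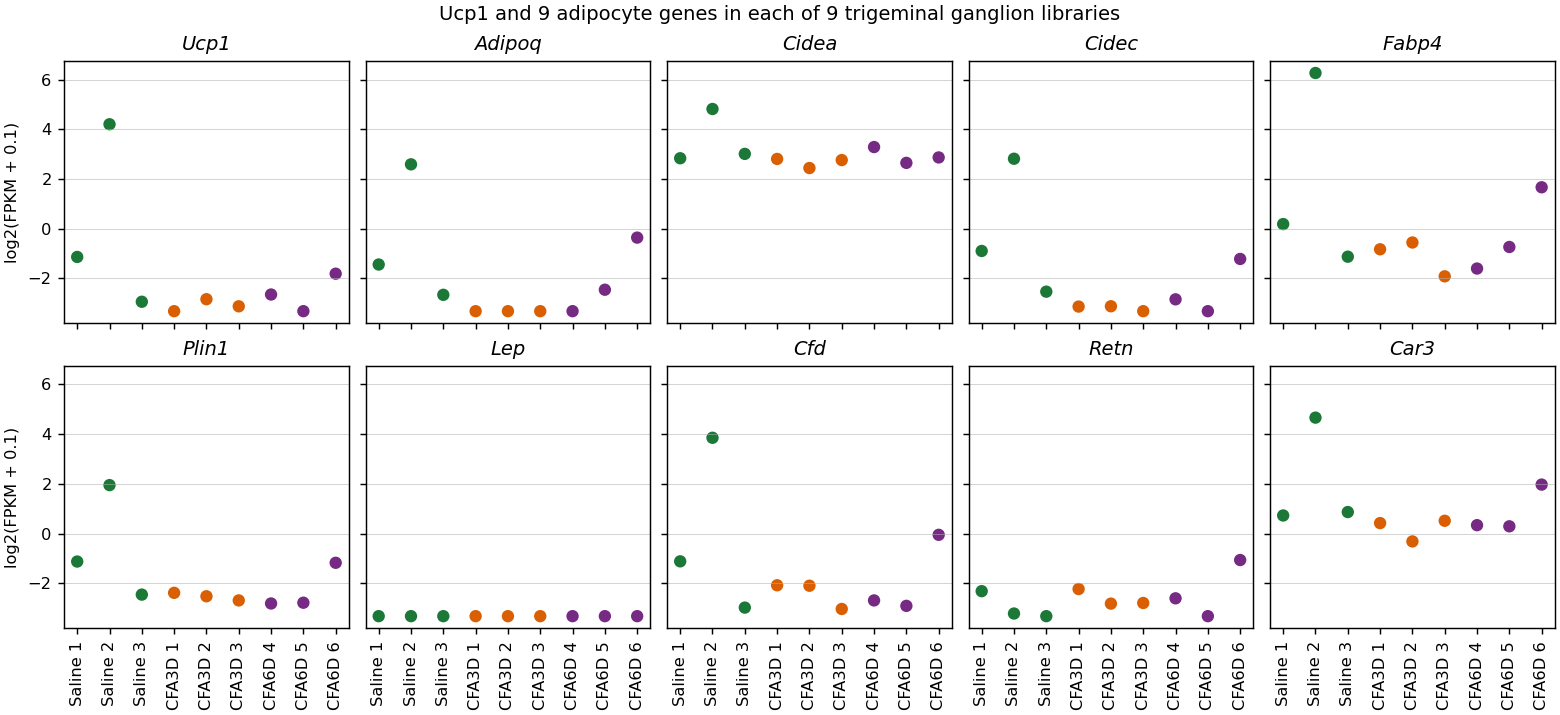
Gene sums of Ucp1 and the 9 adipocyte genes in each library, as log2(FPKM + 0.1), 1 point per library (green saline, orange CFA3D, purple CFA6D). Saline replicate 2 is the highest library for every gene except Lep, which is at 0 throughout, and Retn, which is highest in CFA6D replicate 6.

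The secreted proteins of fat cells were measured through Adipoq, Cfd, Lep and Retn. Adipoq encodes adiponectin, a hormone made almost only by adipocytes (ENSMUSG00000022878, chr16:23146536-23158028, plus strand). It stood at 0.267, 5.91 and 0.0578 FPKM in the saline libraries, was listed at 0 in all 3 CFA3D libraries, and stood at 0, 0.0818 and 0.678 FPKM in the CFA6D libraries. Saline and CFA3D libraries did not overlap, although saline replicate 3 rested on about 3.01 read pairs. No fold change is given for CFA3D, where Adipoq was listed at 0. On CFA6D it was -1.54 ± 1.21 with all libraries and 0.0065 without saline replicate 2.

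Cfd encodes adipsin, the complement factor D that fat cells release (chr10:79890853-79892655, plus strand). Its level was 0.361, 14.4 and 0.0270 FPKM in saline, 0.137, 0.134 and 0.0222 FPKM on CFA3D and 0.0551, 0.0333 and 0.867 FPKM on CFA6D. Saline replicate 2 was again the highest, 16.6-fold over the next library, which was CFA6D replicate 6. Saline replicate 3 was among the lowest, so the groups overlapped.

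Lep and Retn did not share this pattern. Lep, the gene of leptin, the hormone by which white fat reports its stores (chr6:29060220-29073877, plus strand), has 2 transcripts in the table and both were listed at 0 in all 9 libraries. For its longer transcript, 3 read pairs were worth 0.0217 to 0.0306 FPKM, so a lower level would not have been seen. Retn encodes resistin, which mouse adipocytes secrete (chr8:3655770-3660110, plus strand). It stood at 0.101, 0.00762 and 0 FPKM in saline, at 0.113, 0.0419 and 0.0444 FPKM on CFA3D and at 0.0645, 0 and 0.379 FPKM on CFA6D. The library richest in Ucp1 thus had about 0.261 read pairs of Retn, and CFA6D replicate 6 had the most, about 14.6.

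The genes of the lipid droplet were Plin1, Cidec and Cidea. Plin1 encodes perilipin 1, the coat protein that guards the droplet from lipases (chr7:79720218-79732903, minus strand). Its level was 3.77 FPKM in saline replicate 2 and 0.0425 to 0.359 FPKM in the other 8 libraries, with a median of 0.0783. Cidec encodes the droplet fusion protein also called FSP27 (chr6:113424634-113435760, minus strand). It stood at 0.436, 6.92 and 0.0723 FPKM in saline, at 0.0137, 0.0147 and 0 FPKM on CFA3D and at 0.0392, 0 and 0.329 FPKM on CFA6D. Saline and CFA3D libraries of Cidec did not overlap, and saline replicate 1 and CFA6D replicate 6 were the next highest after saline replicate 2.

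Isoforms of these genes differed between libraries as well. Of the 4 Cidec transcripts in the table, the 2 with the highest mean (ENSMUST00000032416 and ENSMUST00000113091, at 3.40 and 2.46 FPKM in saline replicate 2) were listed at 0 in the other 8 libraries. The Cidec values of those libraries came from the other 2 transcripts. Of the 7 Plin1 transcripts, ENSMUST00000205915 was above 0 in all 9 libraries, and 3 were above 0 in saline replicate 2 only. With few read pairs a library can miss a transcript by counting alone, so these values do not separate isoform use from depth.

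In the 8 libraries other than saline replicate 2, Cidea had the highest FPKM of the 10 genes. It encodes a droplet protein of brown adipocytes, related to Cidec (ENSMUSG00000024526, chr18:67343604-67367785, plus strand), with 1 transcript of 5 exons in the table. It stood at 7.02, 28.0 and 7.94 FPKM in saline, at 6.88, 5.32 and 6.66 FPKM on CFA3D and at 9.63, 6.16 and 7.18 FPKM on CFA6D. Those 8 libraries lay between 5.32 and 9.63 FPKM, on at least 234.6 read pairs each, and saline replicate 2 was 2.91-fold over the highest of them. Its mean was 14.3 ± 11.9 FPKM in saline, 6.29 ± 0.846 on CFA3D and 7.65 ± 1.78 on CFA6D (SD, n = 3). In CFA6D replicate 6, which led its group for Ucp1 and Adipoq, Cidea lay between the other 2 CFA6D libraries.

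Fabp4 and Car3 are abundant in adipocytes and not restricted to them. Fabp4 encodes the fatty acid binding protein aP2, found also in endothelial cells and macrophages (chr3:10204088-10208576, minus strand). It stood at 1.03, 76.6 and 0.357 FPKM in saline, at 0.462, 0.579 and 0.164 FPKM on CFA3D and at 0.228, 0.499 and 3.07 FPKM on CFA6D. Saline replicate 2 was 25.0-fold over CFA6D replicate 6, the next library, and the remaining libraries stayed near or below 1 FPKM. Car3 encodes carbonic anhydrase 3, abundant in fat and in slow skeletal muscle (chr3:14863512-14872523, plus strand). It reached 25.3 FPKM in saline replicate 2, 3.82 FPKM in CFA6D replicate 6 and 0.704 to 1.72 FPKM in the other 7 libraries.

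Across the 10 genes, 8 had a mean of at least 0.1 FPKM and entered the fit over all 16096 gene sums. Lep and Retn did not. Saline replicate 2 exceeded every other library by at least 1 on the log2(FPKM + 0.1) scale in all 8 of these, against 0.298% of all gene sums tested. The filter could be passed through that library alone, so this count describes the genes and supports nothing. CFA6D replicate 6 exceeded the 7 libraries other than saline replicate 2 by the same margin in 4 of the 8 (Adipoq, Fabp4, Cfd and Car3), against 3.16% of all gene sums. Retn, below the filter, did so too, and Ucp1 did not.

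Every CFA3D library lay below every saline library for Adipoq, Cidea, Cidec and Car3, against 2.11% of all gene sums, and 0 of the 8 did so on CFA6D, against 5.5%. Because the set was chosen from these contrasts, nothing is read from these counts. In limma 0 of the 16096 gene sums had a Benjamini-Hochberg adjusted p under 0.05 on either day, and the numbers at an unadjusted p under 0.05 were 717 for CFA3D and 1781 for CFA6D.

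The median log2 fold change of the 9 adipocyte genes was -1.99 on CFA3D and -1.54 on CFA6D, with Lep entered at 0, beside 0.05 and 0.03 for all gene sums tested. It would stay the same if Adipoq on CFA3D were placed lower. Without saline replicate 2 the medians were -0.59 and 0.01. Without that library and CFA6D replicate 6, an alternative chosen after seeing the data, they were -0.59 and -0.70. Of single genes, the fold change of Cidec on CFA3D was -2.99 ± 1.14 with all libraries and -1.48 without saline replicate 2 (SE, limma). It depended on the constant added before the logarithm, at -5.14 with 0.01 and -1.19 with 1 in place of 0.1. For Fabp4 on CFA3D the fold change was -2.87 ± 1.65 with all libraries and -0.63 without saline replicate 2, and for Cidea -0.88 ± 0.44 and -0.25. On CFA6D the fold change of Car3 was -1.22 ± 0.94 with all libraries and 0.07 without saline replicate 2, and that of Cfd was -1.80 ± 1.49 and 0.16. Retn had the opposite sign, 0.34 ± 0.59 on CFA3D and 0.62 ± 0.59 on CFA6D, and its CFA6D value was -0.01 without CFA6D replicate 6. The lower mean of fat genes after CFA thus went with 1 saline pool for all of them except Lep and Retn, and on CFA3D a smaller difference of the same sign was left without it. On CFA6D without that pool, Ucp1 (-0.55), Cidec (-0.74) and Plin1 (-0.47) stayed lower. Another 6 of the 10 genes lay above 0, from 0.0065 for Adipoq to 0.49 for Retn. Of these 6, only Cidea (0.04) stayed above 0 when CFA6D replicate 6 was left out as well.

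**Figure D2:**
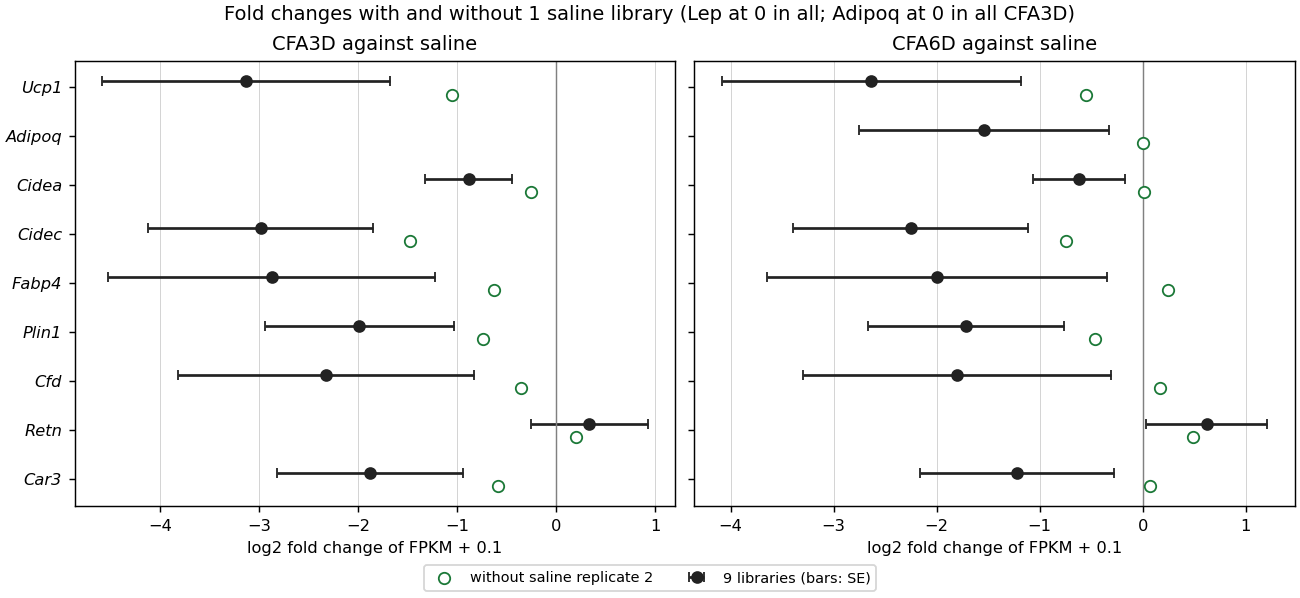
Log2 fold changes of FPKM + 0.1 on CFA3D and CFA6D against saline, from all 9 libraries (black, bars are SE from limma) and without saline replicate 2 (open green). Ucp1 moves from -3.13 to -1.05 on CFA3D and from -2.63 to -0.55 on CFA6D, and the open points lie between -1.48 and 0.21 on CFA3D and between -0.74 and 0.49 on CFA6D.

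CFA6D and CFA3D were also compared with each other. All 9 genes above 0 had a higher mean on CFA6D, and for Ucp1 the difference was 0.50 ± 1.45 (log2, SE). The median difference of the 9 adipocyte genes was 0.52 with all libraries and 0, the value of Lep, without CFA6D replicate 6. Between the days 0 gene sums had an adjusted p under 0.05 in limma (1190 had an unadjusted p under 0.05).

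The libraries that held fat RNA held it in different proportions. Taking Ucp1 and Adipoq read pairs together, Ucp1 made up 79.8% of 1127 pairs in saline replicate 2 (95% exact binomial interval 77.3 to 82.1), 62.1% of 29 pairs in saline replicate 1 (42.3 to 79.3) and 25% of 44 pairs in CFA6D replicate 6 (13.2 to 40.3). The interval of CFA6D replicate 6 lay below both saline intervals, while those of the 2 saline libraries overlapped. The other 6 libraries had fewer than 10 such pairs and gave no share. The intervals cover counting error only, on read pairs estimated from FPKM. With 2 saline libraries and 1 CFA6D library they compare libraries and not conditions. Because Ucp1 was chosen for its lower level after CFA, nothing is read from the order of these shares.

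Relative to Adipoq, the Ucp1 level was 3.09 in saline replicate 2, 1.32 in saline replicate 1 and 0.272 in CFA6D replicate 6. Fabp4 stood at 13.0, 3.87 and 4.53 times Adipoq in the same libraries. Cidec stood at 1.17, 1.63 and 0.485 times Adipoq, Plin1 at 0.638, 1.34 and 0.506 times, and Cfd at 2.43, 1.35 and 1.28 times. Car3, at 4.28, 5.83 and 5.64 times Adipoq, differed least between the 3 libraries. Retn differed most, at 0.00129, 0.377 and 0.559 times Adipoq, although the first value rests on the 0.261 read pairs given above, and Ucp1 came next. These ratios have no replicate check, and that of Ucp1 shares the limit set by its choice.

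**Figure D3:**
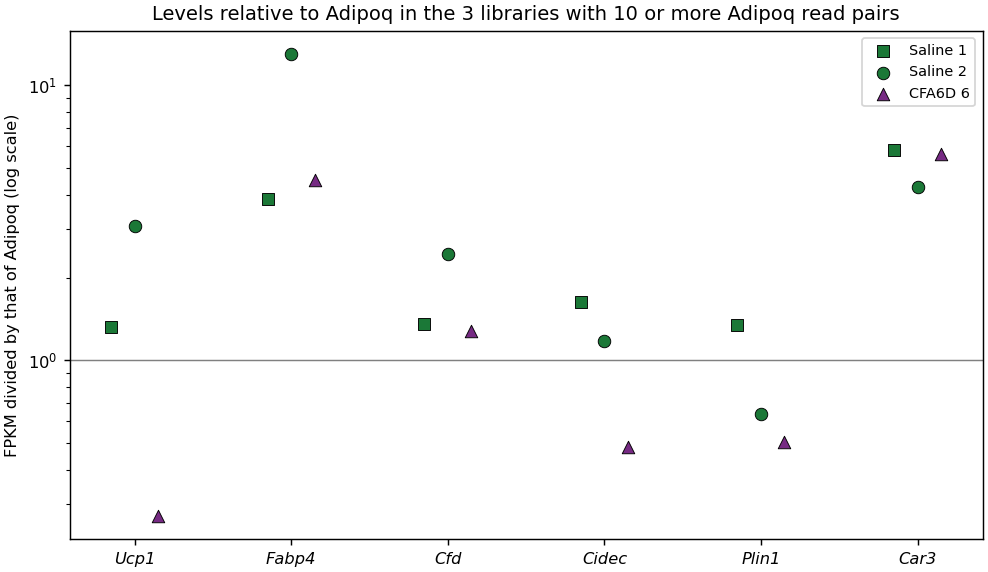
Level of 6 genes divided by that of Adipoq in the same library (log axis), in the 3 libraries with at least 10 Adipoq read pairs: saline replicate 1 (square), saline replicate 2 (circle) and CFA6D replicate 6 (triangle). Ucp1 runs from 0.272 to 3.09, and Car3 stays between 4.28 and 5.83.

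Skeletal muscle RNA moved with fat RNA, though not in step with it. The 13 muscle genes summed to 59.0, 263 and 7.02 FPKM in saline, to 2.83, 3.77 and 14.6 FPKM on CFA3D and to 4.82, 2.38 and 119.3 FPKM on CFA6D. Adipoq, Cidec, Fabp4, Plin1 and Cfd together summed to 2.46, 107.6 and 0.596 FPKM, to 0.704, 0.802 and 0.242 FPKM, and to 0.365, 0.660 and 5.29 FPKM in the same order. The 3 libraries highest in muscle RNA were also the 3 highest in fat RNA. Their ratio of fat to muscle was 0.409 in saline replicate 2 and 0.0417 and 0.0443 in saline replicate 1 and CFA6D replicate 6. CFA3D replicate 3, the next in muscle RNA, was the lowest of all in fat RNA, with a ratio of 0.0165. The ratio was 0.249 and 0.213 in CFA3D replicates 1 and 2, and 0.278 in CFA6D replicate 5. It was 0.0850 in saline replicate 3 and 0.0758 in CFA6D replicate 4. In these libraries low in fat RNA the 5 fat genes had about 12.3 to 43.3 read pairs together.

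**Figure D4:**
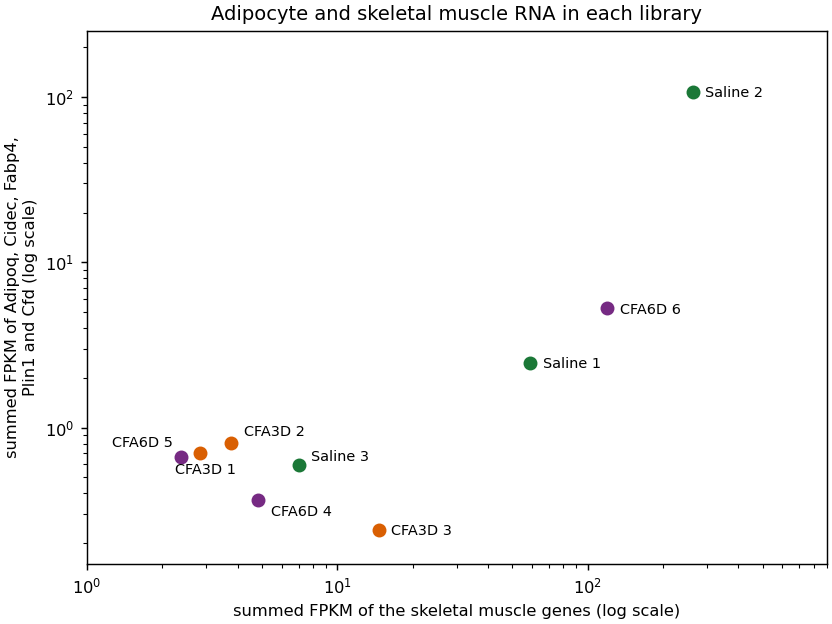
Summed FPKM of 5 adipocyte genes against that of 13 skeletal muscle genes, both on log axes, 1 point per library (green saline, orange CFA3D, purple CFA6D). Saline replicate 2 lies apart at 263 and 107.6 FPKM, and CFA6D replicate 6 and saline replicate 1 lie between it and the other 6 libraries.

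Other genes of brown and white fat were taken from 5 lists of 69 genes outside the 10. A gene was called where the unadjusted p in limma was under 0.05 and the log2 fold change was 1 or more in either direction. Of these, 66 were tested, and 3 were called lower on CFA3D, 2 lower on CFA6D and 2 lower on CFA6D against CFA3D, with none higher. Of all 16096 gene sums, 0.267%, 0.186% and 0.137% were called lower in these 3 comparisons, and 0.0746%, 0.398% and 0.634% higher. The smallest Benjamini-Hochberg adjusted p in limma was 0.997 on CFA3D, 0.235 on CFA6D and 0.476 between the days, so none passed the adjustment. At an unadjusted p under 0.05 alone, limma gave 6 of the 66 on CFA3D and 7 on CFA6D, beside 717 and 1781 of the 16096. Those not called were Mgll (0.41), Trarg1 and Cyp2e1, all higher, on CFA3D. On CFA6D they were Mgll (0.36), Trarg1 and Tshr, higher, and Ebf2 and Gpd1 (-0.60), lower. Mgll and Gpd1 are named after their values were seen. The median log2 fold change of the tested genes was -0.04 on both days against saline. The 4 genes called against saline were all highest in saline replicate 2.

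Among 19 genes of the brown fat programme, 17 were tested, of which 2 were called lower on CFA3D and 2 on CFA6D, beside the shares of all gene sums just given. Cox8b, a cytochrome c oxidase subunit of brown fat and striated muscle, stood at 0.646, 49.9 and 1.28 FPKM in saline, at 0.247, 0.267 and 0.344 FPKM on CFA3D and at 0.317, 0.436 and 2.49 FPKM on CFA6D. Its fold change on CFA3D was -3.28 ± 1.36 (log2, SE, limma adjusted p = 0.997), and the call was lost without saline replicate 2 or any CFA3D library. Cox7a1, the muscle and brown fat form of another oxidase subunit, had 5.40, 19.8 and 5.12 FPKM in saline and 2.45 to 5.62 FPKM on CFA6D, a fold change of -1.15 ± 0.48 (limma adjusted p = 0.421). That call was lost without saline replicate 2, CFA6D replicate 4 or 5, or any CFA3D library, and the fold change was then as small as -0.52.

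Slc27a2, a fatty acid transport protein and acyl-CoA synthetase, was called lower on both days. It stood at 0.128, 1.23 and 0.952 FPKM in saline, at 0.00812, 0.0537 and 0.0902 FPKM on CFA3D and at 0.156, 0.162 and 0.189 FPKM on CFA6D. Its fold change on CFA3D was -2.22 ± 0.59 (limma adjusted p = 0.997), it was called with each of the 9 libraries left out, and without saline replicate 2 it was -1.74. On CFA6D it was -1.35 ± 0.59 (limma adjusted p = 0.444), and of the 9 fits that each left out a library only that without saline replicate 1 kept the call. Slc27a2 was high in 2 saline libraries, unlike Ucp1.

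Regulators of brown fat were present in every library. Ebf2, a transcription factor of brown fat precursors, was called lower on CFA6D than on CFA3D by 1.12 on the log2 scale (-1.12 ± 0.23, limma adjusted p = 0.476), at 4.84 to 8.02 FPKM on CFA3D and 2.34 to 4.08 FPKM on CFA6D. The call was lost without CFA3D replicate 2 or CFA6D replicate 6, with a smallest fold change of -0.95. Against saline the fold change of Ebf2 was 0.37 ± 0.23 on CFA3D (limma adjusted p = 0.997) and -0.75 ± 0.23 on CFA6D (limma adjusted p = 0.267), with no call. Saline replicate 2 held 4.55 FPKM of Ebf2, the lowest saline library, so within saline Ebf2 did not follow Ucp1. Named after their values were seen, Ppargc1a and Prdm16, a coactivator and a regulator of thermogenic genes, stood at 4.36 to 5.11 and 3.68 to 5.85 FPKM in the 9 libraries.

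Of 13 genes listed as adipocyte-restricted, 12 were tested and none was called against saline on either day by limma. On each day 2 had an unadjusted p under 0.05 in limma, all higher after CFA. They were Cyp2e1 (0.80, log2) and Trarg1 on CFA3D, and Trarg1 and Tshr (0.58), the last named after its values were seen, on CFA6D. The 3 genes of this list with the highest mean were found in every library, those with almost no Adipoq included. Trarg1, a regulator of glucose transporter traffic, stood at 71.7 to 91.5 FPKM in saline, 93.9 to 102.6 FPKM on CFA3D and 98.2 to 110 FPKM on CFA6D. Its fold changes were above 0 but below 1 (log2) and failed the adjustment: 0.27 ± 0.10 on CFA3D (limma adjusted p = 0.997) and 0.34 ± 0.10 on CFA6D (limma adjusted p = 0.241). The median fold change of the 9 sensory neuron genes was 0.23 and 0.18 on the same days, and a link with Trarg1 was not tested. Slc36a2, an amino acid transporter, ranged from 18.6 to 40.3 FPKM, and Cebpa, a transcription factor of fat cell formation, from 1.88 to 4.52 FPKM, with group means of 30.3 to 32.3 and 3.02 to 3.13 FPKM. Cyp2e1, a cytochrome P450, was called lower on CFA6D than on CFA3D (-1.32 ± 0.29, limma adjusted p = 0.498), and was called with each library left out. Its mean was 0.0631 FPKM on CFA6D, 0.295 FPKM on CFA3D and 0.127 FPKM in saline.

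Among 26 genes of lipid synthesis and storage, Lpl was called on CFA3D. It encodes lipoprotein lipase, which frees fatty acids from circulating triglyceride, and stood at 1.48, 9.16 and 1.42 FPKM in saline and at 0.791 to 0.978 FPKM on CFA3D. The saline and CFA3D libraries did not overlap, the fold change was -1.52 ± 0.61 (limma adjusted p = 0.997), and it was -0.66 without saline replicate 2, where the call was lost, as it was without any CFA3D library. The enzymes of fatty acid synthesis were abundant and even: Acly at 72.4 to 99.4 FPKM, Scd1 at 62.6 to 82.3 FPKM and Fasn at 31.6 to 43.1 FPKM. Saline replicate 2 was not the highest library for any of these 3.

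Of the relatives of Ucp1 and the receptors of fat hormones, 0 exceeded every other library by 1 (log2) in saline replicate 2. Of 5 carriers of the uncoupling family 0 were called in limma on any contrast (0 at an unadjusted p under 0.05). Ucp2, the widely expressed relative, stood at 13.9 to 24.0 FPKM, Slc25a27 (UCP4) at 12.9 to 17.5 FPKM and Slc25a14 (UCP5) at 6.48 to 9.47 FPKM. Ucp3, the relative known from skeletal muscle and named after its values were seen, was the one carrier highest in saline replicate 2, at 1.02 FPKM there and 0.451 to 0.954 FPKM elsewhere. Of 6 adipokine and adrenergic receptors 0 were called (0 at an unadjusted p under 0.05): the adiponectin receptors Adipor1 and Adipor2 stood at 23.7 to 32.2 and 14.7 to 22.7 FPKM. The highest library among these 6 genes was never saline replicate 2.

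Read library by library, 10 of the 69 genes exceeded every other library by at least 1 (log2) in saline replicate 2, where 0.298% of all gene sums did, which is 48 genes. Together with 8 of the 10 genes above and 8 of the 13 muscle genes, they made up 26 of those 48. These genes and lists were chosen with earlier results known, and a gene could pass the filter through that library alone. The counts therefore describe this library and support nothing. The 10 from the fat-related lists were Cox8b, Cox7a1, Lpl and, named after their values were seen, Pck1, Cd36, Thrsp, Cpt1b, Pparg, Adig and Aqp7. Pck1, an enzyme of glyceroneogenesis in fat, stood at 11.3 FPKM in saline replicate 2 and at 0 to 0.342 FPKM elsewhere. Pparg, the master regulator of fat cell formation, stood at 2.04 FPKM there and at 0.409 to 0.848 FPKM elsewhere. Adig, a small adipocyte protein, stood at 3.47 FPKM there and at 0.0708 to 0.383 FPKM elsewhere. By the same measure 1 of the 69 was highest in saline replicate 3 alone, and none in any of the other 7 libraries.

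**Figure D5:**
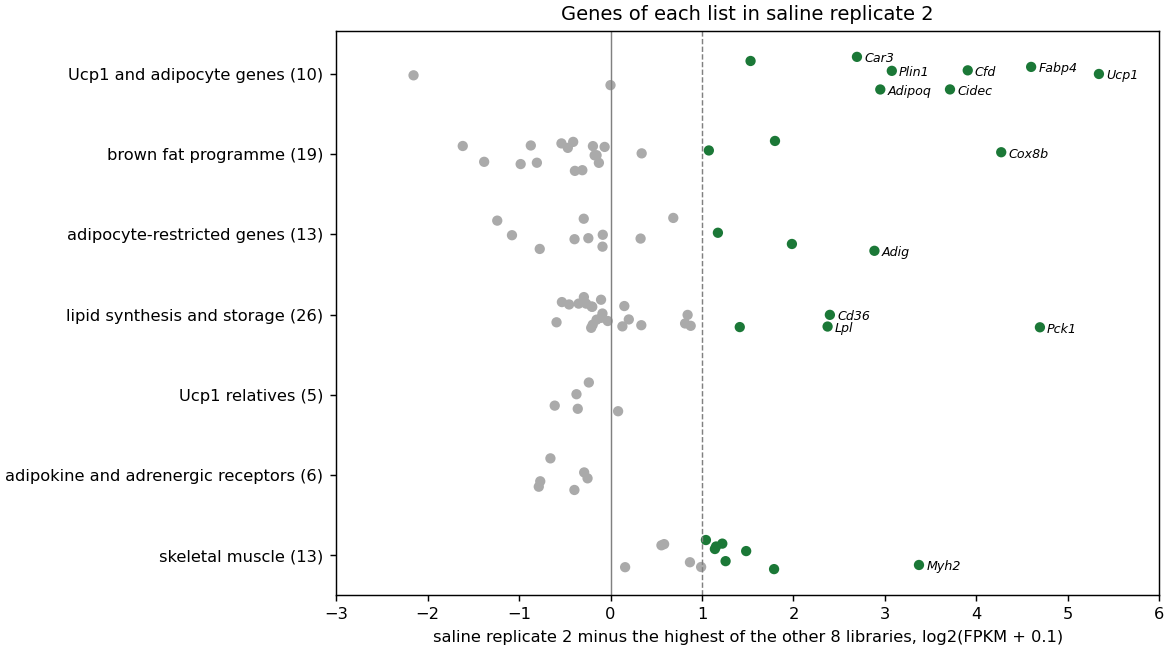
Each point is a gene: log2(FPKM + 0.1) in saline replicate 2 minus the highest of the other 8 libraries, by list (number of genes in brackets), with genes at 1 or more in green. Ucp1, Pck1, Fabp4 and Cox8b lie farthest to the right, and the relatives of Ucp1 and the receptors stay below 1.

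The genes most like Ucp1 over the 9 libraries were sought among the 14230 genes whose mean reached 0.5 FPKM, by Pearson's r of log2(FPKM + 0.1). Outside the 10 genes the most alike were Pck1 (r = 0.98), Lpl (0.97), Cd36 (0.95), Apobec2 (0.95), Scn4a (0.94), Dgat2 (0.94), Cox8b (0.93), Myh2 (0.93), Actn3 (0.92) and Cmya5 (0.92). Pck1, Lpl, Cd36 and Dgat2 belong to fat storage, and Apobec2, Scn4a, Myh2, Actn3 and Cmya5 are known from skeletal muscle. For Adipoq they were Apobec2 (0.98), Cmya5 (0.97), Dgat2 (0.97), Des (0.96), Jsrp1 (0.96), Pck1 (0.96), Lpl (0.96), Cox8b (0.96), Actn3 (0.94) and Scn4a (0.94). The points share their libraries, and their weight on saline replicate 2 differed. Without it, over 8 libraries, r of the same genes with Ucp1 ran from 0.49 for Cd36 to 0.82 for Scn4a, with 0.74 for Pck1 and 0.71 for Lpl. With Adipoq it ran from 0.76 for Scn4a to 0.94 for Apobec2. Among the 10, Cidec kept r = 0.96 with Ucp1 without that library, against 0.98 with it, and Cidea went from 0.92 to 0.17. Over the 8 libraries, Ucp1 rested on 17.8 read pairs in saline replicate 1, 11.5 in CFA6D replicate 6 and 0 to 3.82 in the rest. These values of r without saline replicate 2 therefore leaned on few libraries.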

How the data were processed

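RNA of the TG was measured in 9 libraries, 3 pools per group. The authors deposited FPKM per transcript, from reads trimmed with Trimmomatic and mapped to GRCm38 by their methods. Those methods name CLC Genomics Workbench for the expression levels, while the submitters' processing notes name Bowtie 0.12.2 and mm8. The tables of lncRNA and other noncoding RNA hold no transcript of the 10 genes and were not used. Transcripts were matched by ID to GENCODE M21 (101539 of 102122) and added up per gene. Positions are those of GENCODE M21, and promoters those of RefSeq. Read pairs were estimated from FPKM, length and the step between low values.

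Genes whose mean reached 0.1 FPKM were fitted as log2(FPKM + 0.1), which understates the change of low genes, in limma 3.58.1 under R 4.3.3 (3 groups, trended empirical Bayes, checked on simulated data). Adjusted p-values are Benjamini-Hochberg over all gene sums. P-values are two-sided and set each difference against the spread between pools, shared over the 3 groups and moderated by a trend over all genes. Leaving out a library of a group can therefore change a call between the other groups. With 3 pools against 3 no exact permutation p can go below 0.1, so none is given. The 10 genes and the lists were chosen with earlier results of these data known. From each fat-related list the text names every called gene and the 3 with the highest mean, from each other list the 2 with the highest mean, and the 10 genes most like Ucp1 and Adipoq. Some genes that this rule picks are not reported here. Other steps ran in Python 3.11.15 with pandas 2.3.3 and scipy 1.17.1. The alternatives were other pseudocounts, filters, a normalization, isoform choice, fits of only the groups compared, a replicate block and leaving out libraries.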

Additional observations from a re-analysis of the deposited data

How the results depend on the processing

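The fold change of Ucp1 stayed below 0 under every alternative run. Because Ucp1 was chosen for its lower level after CFA in these libraries, this sign supports nothing. Without saline replicate 2 it rested on saline replicate 1, with about 17.8 read pairs, since saline replicate 3 lay within the range of the CFA libraries. With pseudocounts of 0.01 and 1 the fold change of Ucp1 was -4.81 and -1.56 on CFA3D and -3.65 and -1.47 on CFA6D. The median of the 9 adipocyte genes was -2.62 and -1.07 on CFA3D and -2.1 and -0.78 on CFA6D at these pseudocounts. On CFA3D Retn was 1.38 with a pseudocount of 0.01. With 1 library left out the fold change of Ucp1 ranged from -4.63 to -1.05 on CFA3D and from -4.13 to -0.55 on CFA6D. The median of the 9 adipocyte genes then ranged from -2.94 to -0.59 on CFA3D and from -2.62 to 0.01 on CFA6D, the last without saline replicate 2. Without that library the CFA6D values also turned to 0.0065 for Adipoq, 0.01 for Cidea, 0.25 for Fabp4, 0.16 for Cfd and 0.07 for Car3. Their lowest values with another library left out were -2.62, -0.98, -3.45, -3.25 and -1.9. Retn turned to -0.01 without CFA6D replicate 6 and was at most 1.12. Without both libraries, an alternative added after seeing the data, Cidea was 0.04 and Retn -0.14 on CFA6D.

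Counts of called genes of the fat-related lists in limma depended on the settings, and the cause was not tested. On CFA3D (3 in the report) they were 0 with a pseudocount of 1 (4 at an unadjusted p under 0.05), 1 with no filter, 1 with the transcript of highest mean, and 1 to 7 with 1 library left out, 1 without saline replicate 2, 7 without saline replicate 1 and 6 without saline replicate 3. On CFA6D (2) they were 1 with a pseudocount of 0.01, 1 at a mean of 1 FPKM, 1 without both libraries named above, and 0 with a pseudocount of 1, no filter, the transcript of highest mean and only the groups compared (7, 5, 2 and 3 at an unadjusted p under 0.05). With 1 library left out they were 0 to 7, 0 without saline replicate 2 (5 at an unadjusted p under 0.05) and 7 without saline replicate 1. Between the days (2) they were 0 with a pseudocount of 1 (2 at an unadjusted p under 0.05), 1 at a mean of 1 FPKM, 1 with the transcript of highest mean, 1 without both libraries and 1 to 3 with 1 library left out, as low as 1 without CFA3D replicate 2 or CFA6D replicate 6. Same-numbered saline and CFA3D libraries did not deviate together (r = 0.06, -0.13 and 0.04). With the replicate number as a block, 4 genes of the lists were called on CFA3D. The fold change of Ucp1 was -3.13, which a block cannot change in this balanced layout, so it checks nothing. Under 0.061 FPKM, depth set the limit for Ucp1.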
